A study of Mus musculus with 2 samples.

Results

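Elane, Prtn3, Ctsg, Prss57 and Cfd encode serine proteases of the neutrophil lineage, and they were taken as the rows of the 2 deposited matrices that carry these gene symbols. Each symbol matched 1 row, which gives 5 of 32285 listed genes. Elane encodes neutrophil elastase, Prtn3 proteinase 3, Ctsg cathepsin G and Prss57 neutrophil serine protease NSP4, while Cfd encodes adipsin, also called complement factor D. The cells were promyelocytes taken from leukemic bone marrow of mice and transformed by PLZF/RARA, a fusion of the transcriptional repressor PLZF with the retinoic acid receptor alpha. Both groups carried the fusion. One group had received 0.8 to 1 mg retinoic acid by intraperitoneal injection for 7 days, and the other its vehicle, corn oil with 10% DMSO. Late promyelocytes were sorted as positive for Cd45.2, C-Kit, Gr1 and FcγR and negative for Cd34, and 1 library per group was made by droplet capture of the 3′ ends of polyadenylated RNA. The cohort held 3 to 5 mice, and the number of mice behind each library is not given in the sources used here.

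Elastase, proteinase 3, cathepsin G and NSP4 are made in promyelocytes as inactive precursors. The dipeptidyl peptidase cathepsin C removes a short propeptide from them, and they are stored with the proteoglycan serglycin in azurophil (primary) granules, the granules formed first in the neutrophil lineage. Their transcription normally ends as the cell moves on to making the secondary granule proteins, among them cathelicidin (Camp), neutrophilic granule protein (Ngp), lactoferrin (Ltf) and lipocalin 2 (Lcn2). Mutations of ELANE cause congenital neutropenia in people, and PRTN3 is the main target of antibodies in granulomatosis with polyangiitis. Factor D starts the alternative pathway of complement by cutting factor B.

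After filtering, 5476 vehicle cells and 7140 retinoic acid cells remained, with medians of 16750 and 14604 UMIs. A UMI (unique molecular identifier) marks 1 captured RNA molecule. The libraries shared 11 cell barcodes. With 1 library per group there was no replicate, so no test, p-value or standard error is given, and all intervals are 95% intervals that cover counting error only. Levels are sums of counts over all kept cells, given as CPM, counts per 1000000 counts of the same library. They are not divided by transcript length, so levels are compared between libraries or cells for 1 gene at a time. All 8 promyelocyte markers listed reached 20 CPM in at least 1 library. The list includes Elane itself, so it does not describe the cells independently of the proteases. Of the 8, 3 were at least 2-fold higher under retinoic acid (3.03% of all genes at this level) and 2 at least 2-fold lower (5.05%). Among the lower was Mpo, the myeloperoxidase gene, at only 0.4996 CPM in the library labelled retinoic acid, against 311 CPM under vehicle. The 8 neutrophil markers listed summed to 1587 CPM under vehicle and 61498 CPM under retinoic acid. Of them, 7 reached 20 CPM, and all 7 were at least 2-fold higher under retinoic acid (3.03% of all genes). Markers of other lineages, 8 genes per list, also differed in sum between the libraries. Basophil and mast cell markers summed to 806 CPM under vehicle and 68.1 CPM under retinoic acid (mostly Cpa3 in the former and Mcpt8 in the latter), and eosinophil markers to 115 and 30.5 CPM. Monocyte markers were at 80.1 and 8.99 CPM, B cell markers at 13.9 and 48.8 CPM (mostly Ighm in the latter), and T and NK markers at 1285 and 575 CPM with Cd3e, Cd4 and Cd8a at 0 counts and nearly all of it from Nkg7. Erythroid markers were at 4.22 and 0.790 CPM. The part of such cells in the summed levels was not tested beyond the counts of marked cells given with the shares of positive cells.

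Elane and Prtn3 lie next to each other and were both higher under retinoic acid, and their promoter sequences are shown beside that of Ctsg for comparison. Whether these sequences have a part in the difference was not tested. In GRCm38, Prtn3 (ENSMUSG00000057729) covers bases 79874476 to 79883174 and Elane (ENSMUSG00000020125) bases 79886247 to 79888215 of the plus strand of chromosome 10, with 3072 bases between them. Cfd (ENSMUSG00000061780) follows at 79890853 to 79892655 on the same strand, 2637 bases past Elane. Prss57 (ENSMUSG00000020323) lies at 79781474 to 79790961 on the minus strand, 83514 bases before Prtn3. Ctsg (ENSMUSG00000040314) is on another chromosome, at bases 56099881 to 56102574 of the minus strand of chromosome 14. RefSeq promoter windows matched 4 of the 5 genes by symbol. The 250 bases before the RefSeq start sites of Elane (chr10:79886062-79886311, plus strand), Prtn3 (chr10:79879417-79879666, plus strand) and Ctsg (chr14:56102575-56102824, minus strand) are given 5′ to 3′ from RefSeq's GRCm38.p6 table. The GENCODE gene models used for the spans above start 65 bases before the RefSeq start of Elane and 5191 bases before that of Prtn3, so the Prtn3 window lies inside its GENCODE span. Capitals mark matches to 4 short motifs or their reverse complements: AGGAAGT (PU.1 or ETS type), CAACGG (MYB type), GCAAT (a C/EBP core) and TATAA (TATA box core).
Elane: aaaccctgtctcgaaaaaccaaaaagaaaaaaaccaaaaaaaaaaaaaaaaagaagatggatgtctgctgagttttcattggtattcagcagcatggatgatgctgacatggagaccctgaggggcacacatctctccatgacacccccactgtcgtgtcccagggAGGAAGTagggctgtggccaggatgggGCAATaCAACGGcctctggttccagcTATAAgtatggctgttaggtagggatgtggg
Prtn3: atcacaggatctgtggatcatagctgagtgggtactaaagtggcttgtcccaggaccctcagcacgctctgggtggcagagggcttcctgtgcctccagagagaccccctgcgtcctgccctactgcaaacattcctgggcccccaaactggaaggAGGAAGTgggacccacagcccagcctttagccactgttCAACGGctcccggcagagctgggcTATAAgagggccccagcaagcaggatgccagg
Ctsg: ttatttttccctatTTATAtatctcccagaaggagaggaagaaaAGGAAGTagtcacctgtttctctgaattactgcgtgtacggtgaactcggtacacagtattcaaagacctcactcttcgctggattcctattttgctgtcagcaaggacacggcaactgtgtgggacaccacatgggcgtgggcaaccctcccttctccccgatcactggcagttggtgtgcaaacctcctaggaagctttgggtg
The Elane and Prtn3 windows held the ETS-type, MYB-type and TATA motifs in the same order and on the coding strand. In Elane the ETS-type motif lay 84 to 78, the C/EBP core 57 to 53, the MYB-type motif 51 to 46 and the TATA core 31 to 27 bases before the start. In Prtn3 the ETS-type motif lay 94 to 88, the MYB-type motif 56 to 51 and the TATA core 32 to 28 bases before it. The Ctsg window held the ETS-type motif farther out, at 206 to 200 bases, and the TATA core on the opposite strand only, at 236 to 232 bases. No match to the 4 motifs was found in the Cfd window (chr10:79890603-79890852). Of 32851 RefSeq windows of this length, the ETS-type motif was found in 7.69%, the MYB-type motif in 4.05%, the C/EBP core in 23.1% and the TATA core in 22.8% on either strand. The ETS-type and MYB-type motifs occurred together in 98 windows (0.298%), and all 4 motifs in 4 windows (0.0122%). The motifs were chosen after the sequences had been seen, and a match describes letters only, not binding.

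The summed levels of the 5 genes were compared first. Elane and Prtn3 were far higher in the retinoic acid library, Ctsg and Prss57 were slightly lower, and Cfd was near the limit of detection in both. For Elane, 6227 vehicle counts gave 62.8 CPM (61.3 to 64.4) and 843627 retinoic acid counts gave 7663 CPM (7647 to 7680). This is a 122-fold difference, or a log2 ratio of 6.93 (6.89 to 6.97), and it moved Elane from rank 2190 to rank 7 among all genes ordered by counts. Prtn3 had 24423 counts (246 CPM, 243 to 250) under vehicle and 310300 counts (2819 CPM, 2809 to 2829) under retinoic acid. It was 11.4-fold higher, at a log2 ratio of 3.52 (3.50 to 3.53).

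Ctsg was abundant in both libraries, with 638658 vehicle counts (6444 CPM) and 658226 retinoic acid counts (5979 CPM). Its log2 ratio of −0.11 (−0.113 to −0.103) was −0.03 after TMM scaling and −0.001044 with the 5 proteases and a wider list of 13 granule and late neutrophil genes left out of the totals, so how far it lay from 0 rested on the scaling. Prss57 went from 37346 counts (377 CPM, 373 to 381) to 34670 counts (315 CPM, 312 to 318), with a log2 ratio of −0.26 (−0.28 to −0.24). Cfd had 0 counts in the vehicle library, which allows up to 0.0303 CPM (3 counts), and 21 counts (0.191 CPM, 0.118 to 0.292) in the other. Taken against 3 counts, Cfd was at least 6.30-fold higher under retinoic acid, a log2 ratio of at least 2.66, or of at least 2.23 by the exact interval.

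Of the 4 proteases that reached 20 CPM in 1 or both libraries, 2 were at least 2-fold higher under retinoic acid (Elane and Prtn3) and none was at least 2-fold lower. Among all 5548 genes that reached this level, 8.07% lay beyond 2-fold in either direction, with 3.03% higher and 5.05% lower. The median log2 ratio of all these genes was 0.01, with quartiles of −0.25 and 0.24. The 5 genes together took 0.713% of vehicle UMIs and 1.68% of UMIs under retinoic acid. Ctsg supplied 90.4% of their UMIs under vehicle and 35.6% under retinoic acid, while the part from Elane was 0.881% and 45.7%, that from Prtn3 3.46% and 16.8%, and that from Prss57 5.28% and 1.88%. The pool of captured protease RNA thus went from one made mostly of Ctsg to one in which Elane held the largest part.

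**Figure D1:**
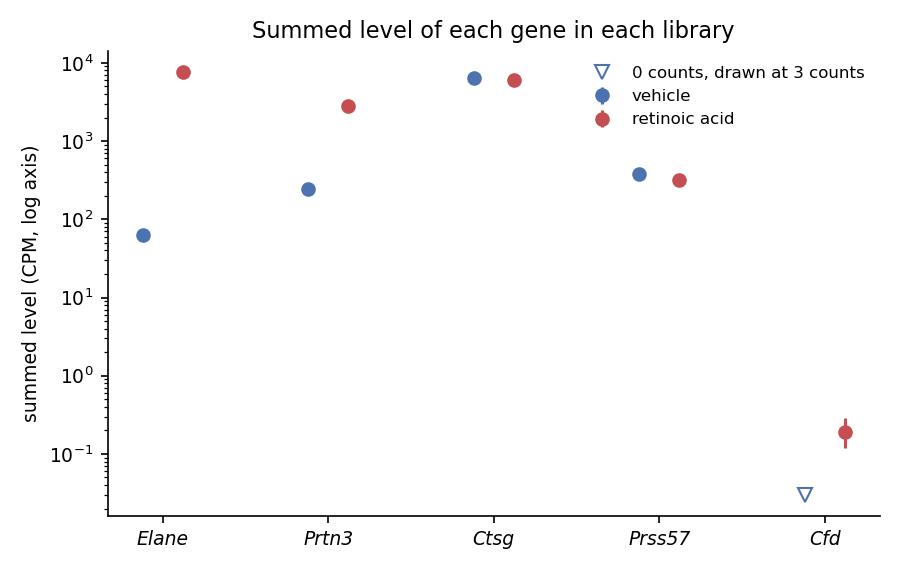
Summed level of each gene in CPM (log axis) in the vehicle (blue) and retinoic acid (red) library, with exact 95% Poisson intervals where these are wider than the points; the open triangle stands for the 0 counts of Cfd, drawn at 3 counts. Elane goes from 62.8 to 7663 CPM and Prtn3 from 246 to 2819 CPM, while the points of Ctsg and of Prss57 nearly coincide between libraries.

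The distribution over cells was compared at 1 depth, with cells thinned at random to 5000 UMIs. This kept 5282 cells of the vehicle and 6659 of the retinoic acid library, and 194 and 481 cells were too shallow. Elane was found in few vehicle cells and in nearly all retinoic acid cells. At least 1 Elane UMI was present in 844 vehicle cells, or 16.0% (15 to 17, Clopper-Pearson), and in 6201 retinoic acid cells, or 93.1% (92.5 to 93.7). The difference was 77.1 percentage points (75.9 to 78.3, Newcombe), and without thinning the shares were 31.8% and 93.9%. The amount per cell separated the libraries further. The median vehicle cell held 0 UMIs (highest cell 17) and the median retinoic acid cell 34 (quartiles 12 and 54, highest cell 172), and at least 10 Elane UMIs were present in 0.0379% and 78.2% of cells.

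Prtn3 was present in 50.9% (49.5 to 52.2) of vehicle and 97.4% (97.0 to 97.8) of retinoic acid cells, or 70.8% and 97.1% without thinning. Its median was 1 UMI (quartiles 0 and 2, highest cell 14) against 13 UMIs (quartiles 7 and 19, highest cell 71). The distributions overlapped more than those of Elane, yet at least 10 UMIs were present in 0.454% of vehicle and 65.7% of retinoic acid cells.

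Ctsg was present in 98.7% of vehicle and 92.7% of retinoic acid cells, a difference of −5.95 percentage points (−6.66 to −5.26), and without thinning in 98.3% and 93.3%. Its medians were close, at 30 UMIs (quartiles 19 and 41) and 26 UMIs (quartiles 9 and 41), and the lower quartile was where the libraries parted. Cells with fewer than 10 Ctsg UMIs were more frequent under retinoic acid, since at least 10 were present in 90.9% of vehicle and 74.5% of retinoic acid cells. Prss57 was present in 79.7% and 71.5% of cells (difference −8.23 percentage points, −9.76 to −6.69), or 93.6% and 85.9% without thinning, with medians of 2 and 1 UMIs. Cfd was found in 0 of 5282 vehicle cells, which allows a share of cells with a UMI of up to 0.0568% (3 cells), and in 9 of 6659 retinoic acid cells (0.135%). Without thinning its 21 counts lay in 21 different cells, so no cell stood out as a Cfd producer.

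**Figure D2:**
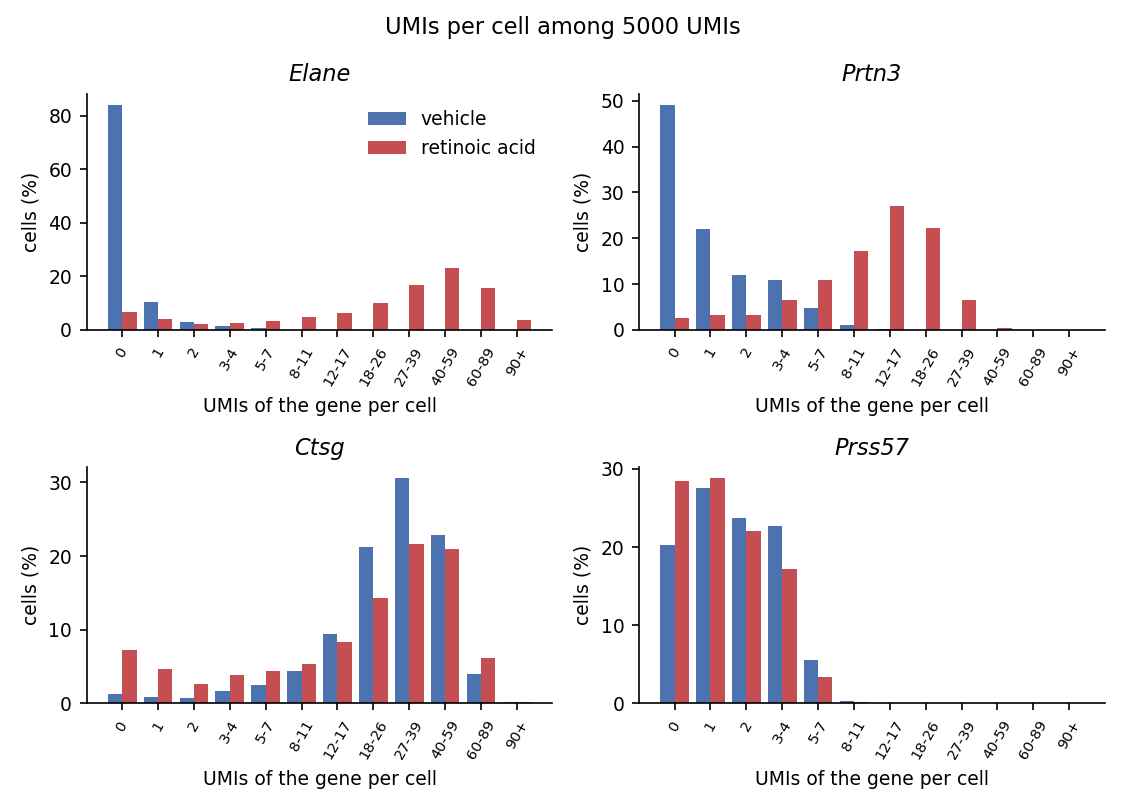
Share of cells (%) by the number of UMIs of Elane, Prtn3, Ctsg and Prss57 among 5000 UMIs per cell, in 5282 vehicle (blue) and 6659 retinoic acid (red) cells. The bins widen toward higher numbers of UMIs, so the height of a bar depends on the width of its bin. The Elane bars of the vehicle stand mostly at 0 UMIs. Those of the retinoic acid library are highest in the bin of 40 to 59 UMIs, whereas the Ctsg and Prss57 bars of both libraries cover the same range.

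Free RNA in droplets can give a cell UMIs of a gene that it does not express, so the shares were read beside cells that carry markers of other lineages. In the vehicle library, 52 cells with eosinophil markers (at least 5 UMIs from at least 3 of 8 listed genes; median depth 9901 UMIs, against 17103 in the other cells) held Elane in 3.85% and Prtn3 in 9.62%, against 16.1% and 51.3% of the other cells. Ctsg was nonetheless present in 92.3% of them, at a mean of 16.5 UMIs against 30.6, and Prss57 in 73.1% against 79.8%. Vehicle cells with basophil or mast cell markers, 557 in number, held Elane in 4.67% and Prtn3 in 24.1%, while Ctsg was present in 98.6%. Only 6 retinoic acid cells met the eosinophil rule (median depth 7647 UMIs against 15154). Of these, 4 held Elane at a mean of 1.67 UMIs against 36.1 in the other cells, 5 held Prtn3 at 1.33 against 13.5, and all 6 held Ctsg at 4.0 against 27.2. A single UMI therefore says little about expression in the retinoic acid library, and the difference in Elane between the libraries is better described by the number of UMIs. No cell in either library met the same rule for erythroid, B, T/NK or monocyte markers.

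Vehicle cells with Elane were not a separate population with high levels. A single Elane UMI was found in 551 cells, and 291 cells (5.51%) with 2 to 9 UMIs held 60.8% of all Elane UMIs in the thinned vehicle cells. Only 2 vehicle cells had at least 10. Mpo was detected in 47.8% of the cells with 2 to 9 Elane UMIs and in 18.4% of the cells without Elane, and Camp in 9.62% and 3.11%. Levels in groups of cells are given as adjusted CPM, counts per 1000000 UMIs that belong neither to the 5 proteases nor to Camp, Ngp, Ltf and Lcn2. On this scale Prtn3 was at 612 in the cells with 2 to 9 Elane UMIs and at 205 in those without, and Ctsg at 8561 and 6178. When vehicle cells were split by Mpo and by Cpa3, the mast cell carboxypeptidase gene, 636 cells with Mpo alone held Elane at 167 adjusted CPM and 2549 cells with Cpa3 alone at 16.7 adjusted CPM. The 1578 cells with neither gene held Elane at 86.2 and the 519 cells with both at 65.1 adjusted CPM. The sets with Mpo alone and with Cpa3 alone held Prtn3 at 389 and 168, Ctsg at 7818 and 5660 and Prss57 at 399 and 369 adjusted CPM.

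The levels were then set along the granule gene share, the percent of the 5000 UMIs of a cell that fell on Camp, Ngp, Ltf and Lcn2, taken as a measure of secondary granule synthesis. Its median was 0.02% under vehicle and 1.84% under retinoic acid (quartiles 0.6% and 6.16%). Within fixed classes of this share, Elane and Prtn3 remained far apart between the libraries, including among cells with hardly any secondary granule RNA. Free RNA may add to the share unequally in the libraries. Retinoic acid barcodes under 1000 UMIs held Camp at 9649 and Ngp at 7173 CPM, against 218 and 249 CPM in those of the vehicle. These were among the deposited barcodes, and whether they hold free RNA alone was not tested. The part of free RNA in the classes was not tested, so an equal share may not mean equal synthesis. Under 0.1%, where 4429 vehicle and 156 retinoic acid cells fell, Elane was at 57.4 and 6736 adjusted CPM, 117-fold apart (114 to 121). At 0.1% to 0.5% (681 and 1210 cells) it was at 104 and 8851 adjusted CPM or 84.9-fold, at 0.5% to 2% (98 and 2081 cells) at 96.3 and 9862 or 102-fold, and at 2% to 10% (56 and 2167 cells) at 49.6 and 7547 or 150-fold (110 to 216). The vehicle value of this last class rests on 37 counts, with an Elane UMI in 5.36% of the 56 thinned cells. Its interval takes counts as independent and leaves out the spread between cells.

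Vehicle cells stayed low in Elane in every class with a value, with no single direction along the share. An Elane UMI was found in 15.1%, 21.6%, 23.5% and 5.36% of vehicle cells from the lowest class to that of 2% to 10%, and in 93.6%, 98.5%, 99% and 96.9% of retinoic acid cells. Prtn3 followed the same order at a smaller distance, with 237, 337, 287 and 192 adjusted CPM in the 4 vehicle classes and 3015, 3187, 3413 and 2864 adjusted CPM in the retinoic acid classes, which is 12.7-, 9.47-, 11.9- and 14.9-fold. The class of at least 10% held 1045 retinoic acid cells, with Elane at 2237 and Prtn3 at 1284 adjusted CPM. It held only 18 vehicle cells, too few for a value.

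In the same classes of granule gene share Ctsg was higher under retinoic acid, although its summed level was not. The limit that free RNA sets on these classes holds here too. Its levels in the 4 vehicle classes were 6671, 6208, 3880 and 1579 adjusted CPM, and in the retinoic acid classes 8803, 8773, 7861 and 4402 adjusted CPM. The log2 ratios were 0.40 (0.38 to 0.42), 0.50 (0.49 to 0.51), 1.02 (0.98 to 1.06) and 1.48 (1.40 to 1.56). The last 2 values rest on 98 and 56 vehicle cells, and the intervals leave out the spread between cells. Among the 56 thinned cells the median was 2 Ctsg UMIs (quartiles 0 and 6.25). In both libraries Ctsg was lower in classes with more secondary granule RNA, down to 679 adjusted CPM in the retinoic acid cells of at least 10%. The retinoic acid library held many more cells in those classes. The part of these cell numbers in the summed level of Ctsg was not tested. Prss57 differed little, with log2 ratios of −0.13 (−0.22 to −0.04), −0.18 (−0.23 to −0.12), 0.06 (−0.07 to 0.18) and 0.42 (0.21 to 0.64) from the lowest class to that of 2% to 10%. Its last 2 values rest on the same 98 and 56 vehicle cells.

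**Figure D3:**
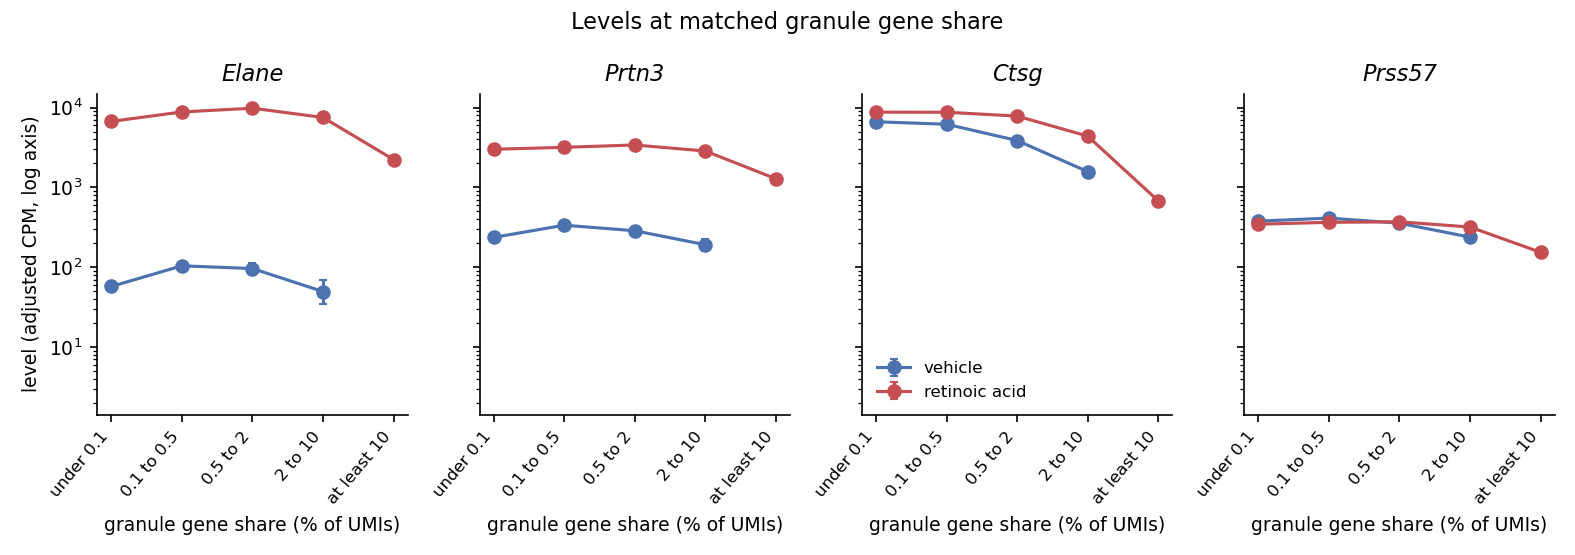
Level of 4 proteases in adjusted CPM (log axis) in classes of the granule gene share (% of UMIs), for vehicle (blue) and retinoic acid (red) cells, with 95% counting intervals; the class of at least 10% has no vehicle point. The Elane curves stay 84.9- to 150-fold apart, the Prtn3 curves 9.47- to 14.9-fold, and the Ctsg curves part as the share grows. The 150-fold value rests on 37 vehicle counts in 56 cells. For every gene the last 2 vehicle points rest on 98 and 56 cells.

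Within the retinoic acid library, cells were ordered by the granule gene share and split into 5 groups of near-equal size (1332 or 1331 cells), with median shares of 0.26%, 0.74%, 1.84%, 4.78% and 12.98%. All 4 abundant proteases were lowest in the group with the highest share, but they did not follow one course. Elane was at 8574, 9980, 9299, 7519 and 2815 adjusted CPM in the order of rising share, Prtn3 at 3162, 3414, 3337, 2851 and 1470, and Prss57 at 362, 376, 364, 314 and 175 adjusted CPM. These 3 genes peaked in the second group and were still near the first group's level in the fourth. Ctsg was highest in the first group and lower in each later one, at 8786, 8257, 6644, 4190 and 944 adjusted CPM.

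Between the lowest and the highest group the log2 ratio was −3.22 (−3.24 to −3.19) for Ctsg, −1.61 (−1.62 to −1.59) for Elane, −1.11 (−1.13 to −1.08) for Prtn3 and −1.05 (−1.12 to −0.98) for Prss57. Per cell, the median went from 40 to 3 UMIs for Elane, from 41 to 1 for Ctsg and from 15 to 4 for Prtn3 between these groups. In the 6 cells with eosinophil markers the medians were 1 UMI for Elane and 4.5 for Ctsg, and the part of free RNA in the lowest levels was not tested. The 21 Cfd counts fell as 7, 8, 4, 2 and 0 over the 5 groups, too few to give a trend.

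The proportions of Ctsg and Prtn3 to Elane also changed along this order. Per 100 Elane counts, the 5 groups held 102, 82.7, 71.4, 55.7 and 33.5 Ctsg counts. For Prtn3 the numbers were 36.9, 34.2, 35.9, 37.9 and 52.2, nearly constant over the first 4 groups. In the 4 vehicle classes with values, Prtn3 stood at 412, 323, 298 and 386 counts per 100 Elane counts. In these sums the 2 neighbouring genes thus had a nearly constant proportion over the first 4 retinoic acid groups. Another range, with far less Elane, was seen in the vehicle classes. The proportion within single cells is not given by such sums.

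The group with the highest share also had the lowest median depth, 10280 UMIs against 17944 in the first group, and the most G1 cells, 49.4% against 20.9% to 23.2% in the other groups. Within each phase called from cell cycle genes, Elane, Prtn3 and Prss57 were again highest in the second group and lowest in the fifth, and Ctsg was lower in each later group. Among G1 cells Elane was at 9269, 10961, 10068, 7456 and 1793 adjusted CPM over the 5 groups, and Ctsg went from 8473 to 589 adjusted CPM. Elane peaked in the second group and was lowest in the fifth in S cells (10397 and 3624 adjusted CPM) and in G2/M cells (9524 and 3364 adjusted CPM) too. The part of depth in these values was not tested. Between phases as a whole, the summed Elane level of retinoic acid cells differed little, at 7502 adjusted CPM in G1, 8408 in S and 8225 in G2/M. An Elane UMI was found in 82.9%, 96.5% and 97.3% of these cells, with lower quartiles of 2, 16 and 18 UMIs. Their Ctsg was at 5258, 5895 and 6962 adjusted CPM. Vehicle cells held Elane at 36.1 adjusted CPM in G1 and at 90.3 in S and 80.0 in G2/M, and Ctsg at 5356, 6935 and 7436 adjusted CPM.

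Retinoic acid cells at the extremes of Elane differed in the same direction. The 458 cells (6.88%) without an Elane UMI had a median granule gene share of 14.2%, 68.3% of them were in G1 and 98.5% carried Camp. They held Prtn3 in 79.0% and Ctsg in 46.5% of cells. The 124 cells (1.86%) with at least 100 Elane UMIs had a median share of 1.13% and held 5.88% of the Elane UMIs, with Prtn3 at 4931 and Ctsg at 11021 adjusted CPM. Elane was thus spread over most of the library, and the 10% of cells with most Elane held 24.6% of its UMIs. In the vehicle that part was 78.7%, but only 16.0% of vehicle cells held any Elane UMI. A high part follows largely from so low a level, so the 2 values are not compared.

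Co-expression was described by pairs of genes in single cells. Elane and Prtn3 were found together in 11.4% of vehicle cells, where independence would give 8.13%, and in 92% of retinoic acid cells, where it would give 90.7%. Their odds ratio was 2.80 and 22.0, that of Elane and Ctsg 13.5 and 28.4, and that of Ctsg and Prss57 11.3 and 8.72. The 13.5 rests on 1 vehicle cell with Elane and without Ctsg, and 98.4% of vehicle cells without Elane held Ctsg. It is therefore not read as strong co-expression. The Spearman correlation of Elane and Prtn3 UMIs was 0.24 over 5282 vehicle cells and 0.66 over 6659 retinoic acid cells. For Elane and Ctsg it was 0.25 and 0.66, and for Prtn3 and Ctsg 0.12 and 0.62. Prss57 was more loosely tied, at 0.06 and 0.26 with Elane, 0.08 and 0.26 with Prtn3, and 0.23 and 0.32 with Ctsg. Cells of a library share its free RNA, and low counts, as those of Elane in the vehicle, limit how large a correlation can become, so neither the weak vehicle values nor their difference from the retinoic acid values is read as a finding.

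In the retinoic acid library the granule gene share itself correlated with Ctsg at −0.73, Elane at −0.45, Prtn3 at −0.43 and Prss57 at −0.28. Within the 5 groups of that share, the correlation of Elane with Prtn3 was 0.48, 0.44, 0.44, 0.51 and 0.67, and that of Elane with Ctsg 0.40, 0.44, 0.46, 0.56 and 0.70. In the vehicle the 4 genes correlated with the share between −0.03 and 0.14. Vehicle cells with an Elane UMI held Prtn3 in 71.3% and a mean of 39.7 Ctsg UMIs, against 47.0% and 28.7 in cells without one. Under retinoic acid the means of Ctsg were 29.0 and 1.90 UMIs.

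The combinations of the 4 abundant proteases in a cell depend on the share of cells with each gene and on how far the genes occur together. How far the shares alone would give the numbers below was not tested. All 4 were present in 509 vehicle cells (9.64%) and 4534 retinoic acid cells (68.1%). In the vehicle the commonest combinations were Ctsg with Prss57 alone (33.5%) and Ctsg with Prss57 and Prtn3 (32.4%). Under retinoic acid, the second commonest after all 4 was Elane, Prtn3 and Ctsg without Prss57 (20.8%). None of the 4 was found in 42 vehicle and 49 retinoic acid cells, below 1% of each library.

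**Figure D4:**
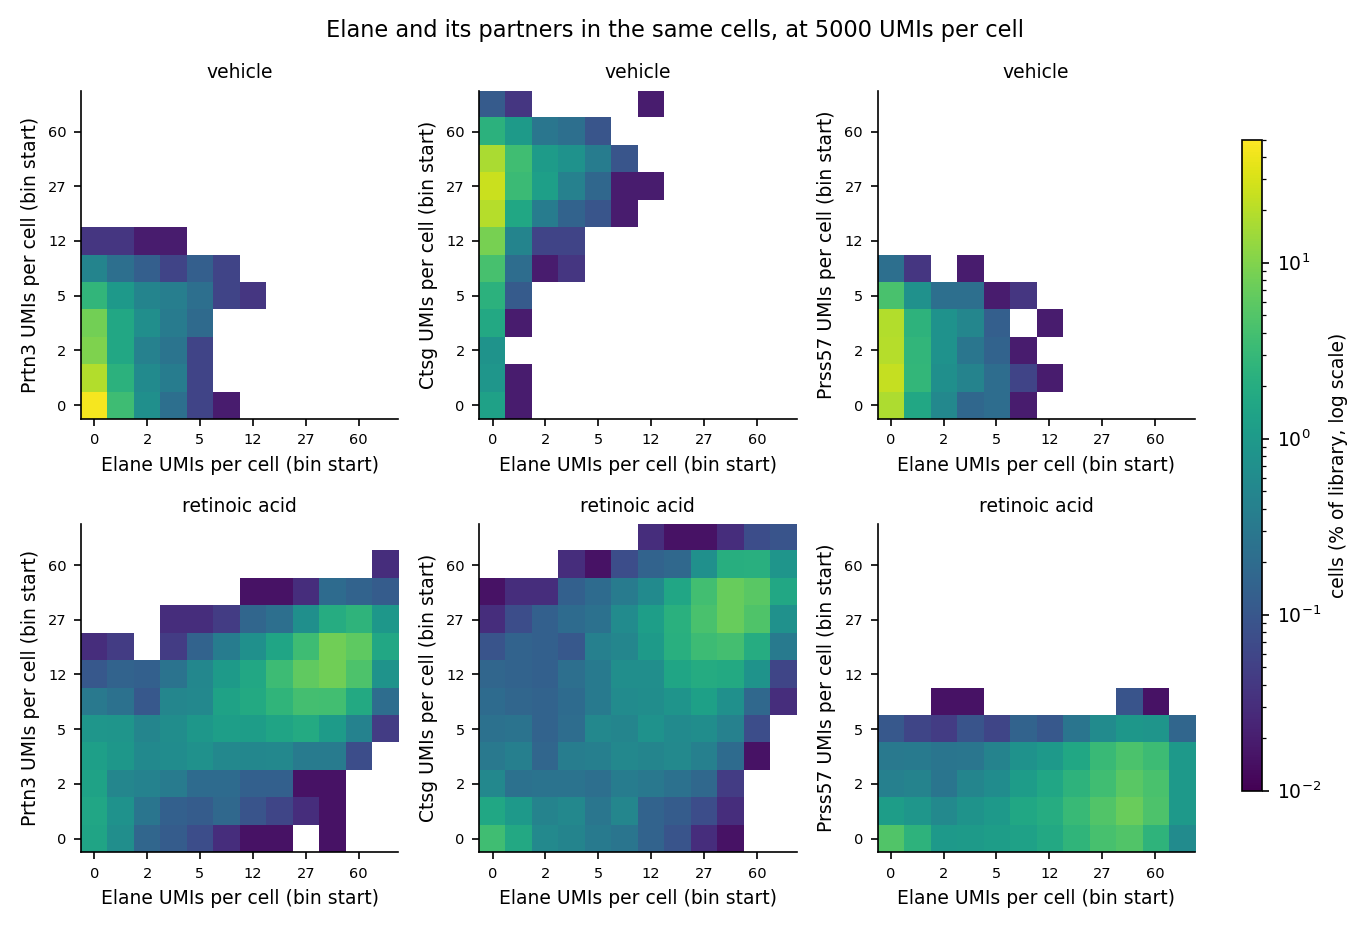
Joint distribution of Elane UMIs (horizontal) with Prtn3, Ctsg and Prss57 UMIs (vertical) per cell at 5000 UMIs, on binned axes labelled by the start of each bin, for vehicle (top) and retinoic acid (bottom) cells; the colour is the percent of the library's cells on a log scale. Vehicle cells crowd at 0 Elane UMIs whatever their Ctsg, while retinoic acid cells form a diagonal band with Prtn3 (Spearman 0.66) and Ctsg (0.66).

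The genes most like each protease across single cells were taken by the Pearson correlation of log(1 + UMIs), among genes of 50 CPM or more in the library (2683 in the vehicle, 2662 in the retinoic acid library). In the retinoic acid library Elane was most like Ctsg (0.78), Prtn3 (0.75), Ms4a3 (0.70), Srgn (0.63) and Gstm1 (0.59). Ms4a3 encodes a membrane protein of granulocyte-monocyte progenitors, and Srgn encodes serglycin, the proteoglycan that holds proteases in the granule. Ctsg was most like Srgn (0.79), Elane, Ms4a3 (0.74), Prtn3 (0.71) and Plac8 (0.70), and Prtn3 was most like Elane, Ctsg, Ms4a3 (0.63), Srgn (0.59) and Plac8 (0.55). The nearest genes of Prss57 were Ctsg (0.38), Srgn (0.36), Plac8 (0.35), Ms4a3 (0.34) and Rpl3 (0.32). In the vehicle the values were lower. The limits given for the Spearman correlations hold here too, so this difference is not read as a finding. Elane was nearest to Ms4a3 (0.29), Prtn3 (0.28), Mpo (0.24), Ctsg (0.21) and Gstm1 (0.20), and Ctsg to Ppia (0.49), Ms4a3 (0.47), Ptma (0.39), Eif5a (0.38) and Ran (0.35). Of the genes nearest to vehicle Ctsg, only Ms4a3 was also among the nearest in the retinoic acid library, and Ppia, Ptma, Eif5a and Ran are expressed in most cell types.

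Genes that act with the proteases were read from lists, by the number of members with at least 20 CPM that lay beyond 2-fold. These counts stand against 8.07% of all genes (3.03% higher and 5.05% lower), and with so few members per list nothing is read as particular to a list. Of 9 other genes listed with the azurophil granule, 2 were higher under retinoic acid (3.03% of all genes), 1 was lower (5.05%) and 6 lay between, with a median log2 ratio of −0.18. The list holds Ms4a3, a membrane protein gene and 1 of the 2 higher, so it is not made of granule contents alone. Ms4a3 went from 850 to 2087 CPM (log2 ratio 1.30) and Lyz2, the lysozyme gene, from 168 to 387 CPM (1.21). The lower gene was Mpo, at −9.27, so the granule's most abundant enzyme and elastase differed in opposite directions. Srgn was at 2171 and 1811 CPM (−0.26), and the tetraspanin gene Cd63 at −0.18.

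Of 11 genes for processing and traffic of the proteases, 9 reached 20 CPM, 1 was higher and 8 lay between, close to the background of 8.07%, with a median log2 ratio of −0.12. The higher one was Lyst, which regulates granule size and is mutated in Chediak-Higashi syndrome, at 4.38 and 23.9 CPM (2.44). Ctsc, the gene of the activating peptidase cathepsin C, had 0 counts in the vehicle and 1 count in the retinoic acid library, and whether this reflects the cells or the reference used for counting cannot be told from the files. The congenital neutropenia genes Hax1, Jagn1 and G6pc3 were at log2 ratios of −0.14, 0.28 and −0.83, and Rab27a, a small GTPase of granule release, at 0.54.

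Of 11 protease inhibitor genes only 3 reached 20 CPM, of which 2 were lower under retinoic acid (5.05% of all genes). Slpi, which encodes an inhibitor of elastase and cathepsin G, was at 2403 and 1053 CPM (log2 ratio −1.19), and Serpinb6a, an intracellular inhibitor of cathepsin G, at 249 and 107 CPM (−1.22). Serpinb1a, which encodes a cytosolic inhibitor of the neutrophil serine proteases, was at 781 and 1120 CPM (0.52). None of the 3 inhibitor genes differed between the libraries by as much as Elane or Prtn3.

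Transcription factors known to act on protease genes differed much less than Elane. Of 13 listed, 10 reached 20 CPM, of which 1 was higher and 9 lay between, close to the background of 8.07%, with a median log2 ratio of 0.10. The higher one was Cebpd, at 98.3 and 209 CPM (1.09). Gfi1, a repressor of Elane in the neutrophil lineage, was at 75.4 and 144 CPM (0.93), and Spi1, the PU.1 gene, was at 173 and 293 CPM (0.76). Cebpb was at 0.68, Cebpa at −0.23, Cebpe at −0.16, Myb at −0.42 and Runx1 at −0.54. Lef1, an activator of Elane in people, had 5 and 9 counts. Zbtb16 and Rara, the genes of the fusion partners, were under 20 CPM in both libraries, at 9.76 and 1.63 CPM (−2.58) and at 11.04 and 1.97 CPM (−2.48).

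Other serine proteases of blood cells were scarce. Of 15 listed, only Mcpt8, a basophil protease, reached 20 CPM, at 122 and 63.1 CPM (log2 ratio −0.95), while Gzmb had 430 and 0 counts. In the alternative complement pathway, only C3, the central complement component, reached 20 CPM among 6 listed genes, at 79.3 and 261 CPM (1.72). Properdin (Cfp) was at 9.52 and 5.60 CPM, and factor B (Cfb) had 9 and 13 counts.

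The neighbourhood of Elane was examined to see how far the difference extended. Among 18 other genes that reached 20 CPM and lie within 250 kb, the median log2 ratio was −0.05, 1 gene was at least 2-fold higher besides Elane and Prtn3 themselves, and none was 2-fold lower. That gene was Plppr3, at 6.73 and 45.8 CPM (2.76). It runs on the opposite strand, has its start at −11.6 kb from that of Elane, and overlaps the first bases of the Prtn3 gene model. Whether the counting used strand is not given in the sources used here, so reads from that overlap cannot be assigned with certainty. Past Elane, R3hdm4 was at 0.73 and Arid3a at 0.95, and Ptbp1, on the other side, was at 0.13. Palm, the nearest gene to Prss57 with a value, was at −0.09. Around Ctsg on chromosome 14, where granzyme and mast cell protease genes lie, Mcpt8 was the only other gene to reach 20 CPM.

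**Figure D5:**
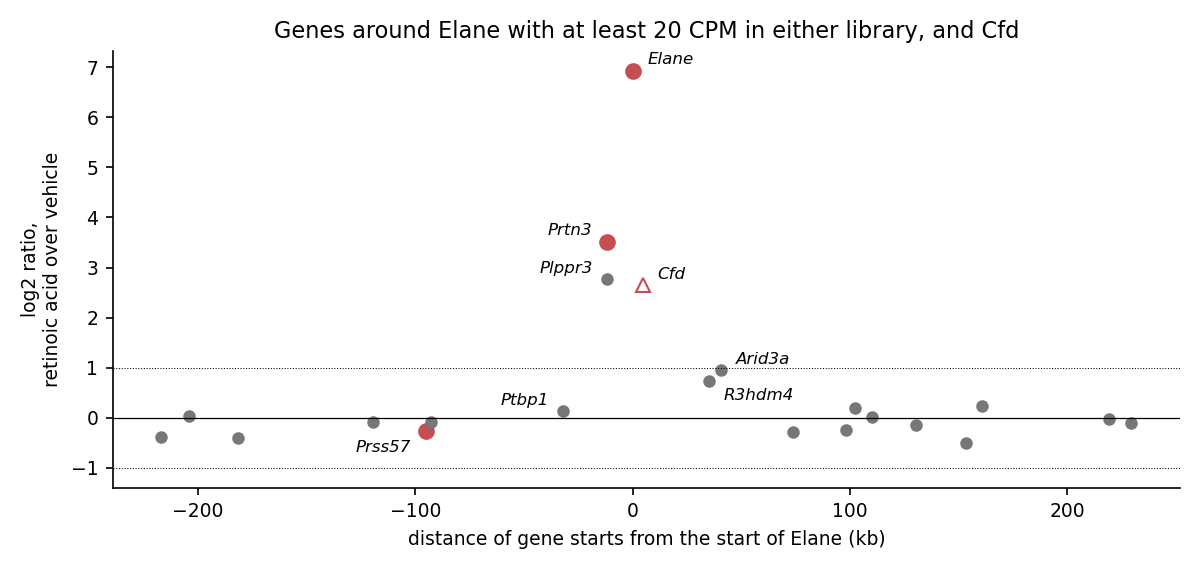
Log2 ratio of retinoic acid over vehicle for genes that reached 20 CPM, against the distance of their starts from that of Elane (kb); red points are the proteases, the open triangle is the lower bound of Cfd and dotted lines mark 2-fold. Elane (6.93), Prtn3 (3.52) and Plppr3 (2.76) and the bound of Cfd (2.66) stand above the other genes, which lie between −0.50 and 0.95.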

How the data were processed

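Per the file headers and the submitters' processing notes, the authors deposited raw UMI counts per gene and cell, written by Cell Ranger 4.0.0, with the builds mm10 and GRCm38.p4 named. The annotation used for counting and how cells were told from empty droplets are not given in the sources used here. Per the labels' protocols, libraries were made with 10x Genomics 3′ kits at a target of 6000 cells.

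Cells with at least 1000 UMIs, at least 500 genes and at most 10% mitochondrial UMIs were kept, which removed 310 vehicle and 276 retinoic acid barcodes and left 99107718 and 110088247 counts. No doublet caller was run and no doublets were removed. An alternative left out the 5% of cells with most UMIs in each library. Counts were summed per library, and 0.5 counts were added to each sum for log2 ratios. Sums carry exact Poisson intervals, ratios exact binomial intervals conditional on both sums, and shares Clopper-Pearson intervals. A sum of 0 was taken as 3 counts for bounds. Because each group held 1 library, no test was made. Cells of 5000 UMIs or more were thinned to 5000 (random seed 1). Phases were called with scanpy 1.11.5 from 42 S and 52 G2/M genes, and TMM factors came from edgeR 4.0.16, which was used for scaling only. Of the 32285 identifiers, 32158 matched GENCODE M21, which gave the GRCm38 coordinates. The calculation of ratios was tested on simulated counts. Named genes were the 5 proteases, listed genes that reached 20 CPM in 1 library, genes within 250 kb of Elane or Ctsg at that level, and the 5 genes most like each protease in each library. Genes named below 20 CPM (among them Ctsc, Gzmb, Lef1, Zbtb16, Rara, Cfp and Cfb) and the splits of cells by Elane, Mpo and Cpa3 were chosen after their values were seen. The proteases, the lists and the comparisons were chosen with earlier results of these data known.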

Additional observations from a re-analysis of the deposited data

How the results depend on the processing

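Of 65 recomputed values, 29 lay inside the counting interval of the value given above (for the count of genes, inside 1.5 times it), 36 outside it, and 0 changed direction. The cause was not tested, apart from scalings, whose shift is given. For Elane, the log2 ratio of retinoic acid over vehicle was 6.98 without the 5% of cells with most UMIs, 7.04 with the proteases and a wider list of granule genes left out of the totals (which adds 0.11 to every ratio), 7.01 with TMM scaling (which adds 0.08) and 6.98 with equal weight for every cell. In the last 3 settings it was 3.62, 3.60 and 3.44 for Prtn3 and −0.15, −0.18 and −0.32 for Prss57. For Ctsg the 4 settings gave −0.13, −0.001044, −0.0278 and −0.18. The number of genes at least 2-fold different was 6081 without a limit on low levels, since more genes were then compared.

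At 3000 UMIs per cell the difference in the share of positive cells was 54.2 percentage points for Prtn3, −8.33 for Ctsg and 0.0289 for Cfd. With 2 UMIs required it was 83.4 for Elane, 65.4 for Prtn3, −9.78 for Ctsg and 0 for Cfd. Between the lowest and the highest group of granule gene share the log2 ratio, relative to all genes, without Camp, with the wider list and with 10 groups, was −1.78, −1.77, −1.14 and −2.49 for Elane, −1.28, −1.23, −0.81 and −1.74 for Prtn3 and −3.39, −3.27, −2.83 and −4.55 for Ctsg. For Prss57 it was −1.22 relative to all genes and −1.69 with 10 groups. Cfd has no value with equal weight per cell, where the vehicle mean is 0 and a limit of 3 counts is not defined, or with 10 groups, where that limit leaves no direction. No paired analysis was possible because there was 1 library for each treatment.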

Other observations

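The protease RNA of deposited barcodes left out for having under 1000 UMIs is given here, and whether they hold free RNA alone was not tested. In the retinoic acid library, 130 such barcodes with 97726 UMIs held Elane at 3264, Prtn3 at 1443, Ctsg at 3234 and Prss57 at 307 CPM, which is 0.426, 0.512, 0.541 and 0.975 of the level in the kept cells. In the vehicle library, 129 such barcodes with 96339 UMIs held Elane at 10.4 CPM (0.263 to 57.8) and Ctsg at 976 CPM.

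Cells nearly without mitochondrial RNA (at most 0.1% of UMIs) carried the proteases at levels close to those of the other cells. In the retinoic acid library, 411 such cells held Elane at 9240 adjusted CPM against 8076 adjusted CPM in the others, Prtn3 at 3315 against 2970 and Ctsg at 6478 against 6340 adjusted CPM. In the vehicle, 136 such cells held Elane at 72 (59.7 to 86.0) against 63.4 adjusted CPM.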
